A study of Mus musculus with 4 samples.

Results

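The genes Foxa1, Foxa2, Foxa3, Cebpa, Cebpb, Onecut1, Onecut2, Prox1 and Creb3l3 encode transcription factors that hold hepatocytes in their differentiated state, and their transcripts were followed here in livers with and without NIPP1. They were taken by gene symbol from the array files, with every probe of each symbol kept and control spots left out, which gave 9 genes out of 24783 gene names on the array and 11 probes of 60 bases each. The study measured total liver RNA of 8 untreated male mice of a mixed strain, all 2 months old. In 4 of them NIPP1, a nuclear subunit of protein phosphatase 1 encoded by Ppp1r8, had been knocked out conditionally in the liver, and the other 4 were labelled as controls. The labels do not name the Cre driver, the deleted exons or the alleles that the controls carry. Each of 4 two-colour arrays held 1 knockout and 1 control mouse. The knockout mouse was labelled with Cy3 on replicates 1 and 2 and with Cy5 on replicates 3 and 4, and no mouse was measured more than once.

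The FOXA factors are forkhead proteins that can bind their sites in closed chromatin and open the way for other factors at liver genes such as albumin. C/EBP-alpha drives the metabolic genes of the mature hepatocyte, while C/EBP-beta takes over in the acute phase response and in regeneration. Onecut1, also called HNF6, and Onecut2 act in hepatocyte and bile duct development and keep regulating glucose and bile acid genes in the adult liver. Prox1 is a homeodomain protein of hepatocytes and lymphatic endothelium that represses bile acid synthesis together with nuclear receptors. Creb3l3, also called CREBH, is a membrane-bound factor of the endoplasmic reticulum that is cut in the Golgi apparatus and then activates genes of lipid, acute phase and iron metabolism.

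Values are log2 ratios of knockout over control within an array, or normalised intensities of single mice after both dyes were brought to one scale. All 11 probes were well above background in all 8 mice, and none was left out by the filter on dim probes. The targeted transcript, Ppp1r8, had intensities of 178.7, 197.2, 178.8 and 183.3 in the control mice of replicates 1 to 4 and of 117.7, 118.5, 106.8 and 118.3 in the knockout mice on its brighter probe. It was thus lower in the knockout mouse of every array, by a mean log2 ratio of -0.68 ± 0.07 (SD, n = 4; limma adjusted p = 0.0519). Its second probe gave -0.65 ± 0.08 (SD, n = 4). The position of these probes relative to the deletion is unknown, so they may not check it. The knockout liver of replicate 1 stood apart by pancreatic acinar transcripts. The summed intensity of 16 acinar markers was 53000 there and 4906 to 13600 in the other 7 mice. The acinar list had 6 of 20 markers above background in all 8 mice, and its defining factor Ptf1a in none. All 15 hepatocyte markers were above background in all 8 mice, as the tissue label requires.

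The levels of the 9 factors varied widely between mice and between arrays, and no factor passed the test of knockout against control. In limma, 0 of 9 passed an adjusted p of 0.05, where 31 of 16170 tested genes did (0.192%; 0.13% higher and 0.0618% lower in knockout). At an adjusted p of 0.1 the count was also 0 of 9, against 6.67% of all genes. At an unadjusted p under 0.05 it was 1 of 9, Foxa3, against 23.2%. No factor had the same sign on all 4 arrays, which 24.2% of all genes had (13.3% positive and 10.9% negative). A mean log2 ratio above 0.5 in size was found for 1 of 9, Foxa3, against 3.93% of all genes. The median of the 9 mean log2 ratios was 0.012, beside -0.00079 over all tested genes. What the factors did show was a wide spread from array to array. The standard deviation over the 4 arrays was larger than that of 91.6% to 99.6% of all genes for 7 of them (Foxa1, Foxa2, Foxa3, Cebpa, Cebpb, Onecut1 and Prox1), and the median standard deviation of all genes was 0.17. Onecut2 exceeded 75.1% and Creb3l3 38.3% of all genes. A wide spread was not confined to them: the median standard deviation was 0.66 over the 9 factors, 0.57 over FOXA-bound liver genes, 0.46 over hepatocyte markers and 0.36 over other liver-enriched factors. The offset of 50 added to the intensities narrows the ratios of dim probes. On the dimmer Onecut1 probe the standard deviation was 0.99, and 1.70 in the processed signals of the scanner software, which carry no offset. The factors were ranked against genes of all intensities, with no matching by brightness. Without replicate 1, the array with the acinar transcripts, 0 of 20822 tested probes passed an adjusted p of 0.05. The count of 0 of 9 factors in that fit is therefore not informative about them. The median of the limma estimates of the 9 factors was then -0.0073. These are levels in whole liver, where fewer cells of a type and less RNA per cell cannot be told apart.

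**Figure D1:**
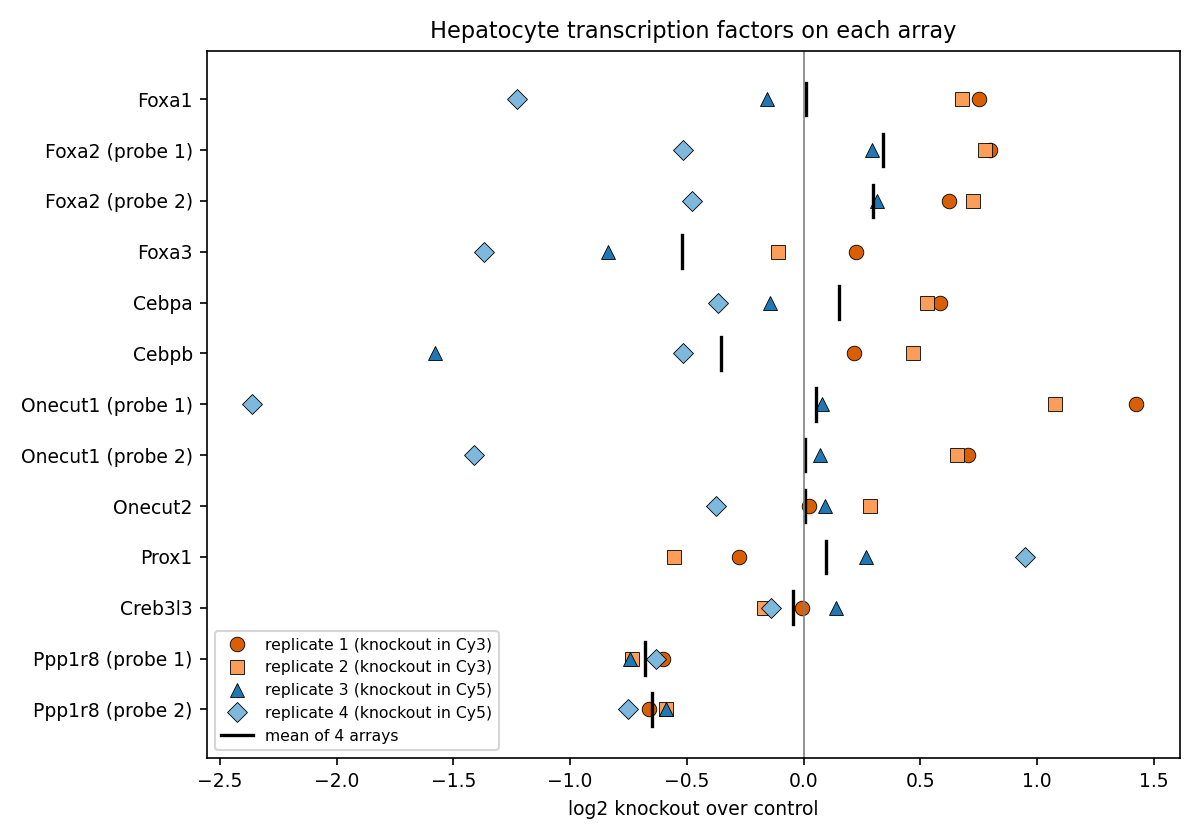
Log2 knockout over control (x axis) of each probe of the 9 factors and of Ppp1r8 (rows), with 1 symbol per array and a black bar at the mean of the 4 arrays. The Ppp1r8 symbols lie close together between -0.75 and -0.59, while those of Onecut1 run from -2.36 to 1.42 around a mean near 0.

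Foxa1, a forkhead factor that shares its sites with Foxa2, had intensities of 1223, 1239, 1475 and 3543 in the control mice of replicates 1 to 4 and of 2060, 1981, 1323 and 1516 in the knockout mice. The control mouse of replicate 4 stood above all 7 others, the knockout mice of replicates 1 and 2 came next, and the groups overlapped. The log2 ratios were 0.75, 0.68, -0.16 and -1.23, with a mean of 0.012 ± 0.92 (SD, n = 4). The 95% confidence interval of the limma estimate ran from -0.49 to 0.52 (adjusted p = 0.978). The probe lies on chr12:58641764-58641823 of mm9, minus strand.

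Foxa2, the forkhead factor that also controls genes of fasting metabolism, was read by a pair of probes on chromosome 2 whose starts lie 55 bases apart. On the brighter probe, chr2:147868669-147868728 of mm9, the control mice gave 2715, 2669, 2876 and 4431 and the knockout mice 4728, 4574, 3528 and 3097. Here 3 of 4 knockout mice exceeded the control mouse on their array, and replicate 4 went the other way, with a control mouse far above the other control mice. The log2 ratios of 0.80, 0.78, 0.29 and -0.52 had a mean of 0.34 ± 0.62 (SD, n = 4), and the estimate lay between -0.05 and 0.73 (95% confidence interval; limma adjusted p = 0.259). The overlapping second probe gave 0.62, 0.73, 0.31 and -0.48, never more than 0.18 from the first on an array. Without replicate 4 the limma estimate, which gives the 2 dye orientations equal weight, was 0.54 on the brighter probe. It was also short of the threshold (limma adjusted p = 0.153).

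Foxa3, the third forkhead factor of the adult liver, had the largest mean difference of the 9. Control mice gave 1377, 1626, 2195 and 2770, and knockout mice 1610, 1509, 1229 and 1072 (chr7:19599053-19599112 of mm9, minus strand). The control mice of replicates 3 and 4 were above every other mouse and their knockout partners below every other mouse, whereas on replicates 1 and 2 the genotypes lay close together. The log2 ratios were 0.23, -0.11, -0.84 and -1.37, a mean of -0.52 ± 0.72 (SD, n = 4). The limma standard error of 0.12 leaves out the gap between the dye orientations, which averaged 0.06 with knockout in Cy3 and -1.10 with knockout in Cy5. The limma interval ran from -0.83 to -0.21 with an adjusted p of 0.107, and an exact sign-flip test over the 4 arrays gave p = 0.375, where 0.125 is the smallest it can give. A fit of the dyes as separate channels gave the same estimate an adjusted p of 0.0114 and called 3676 of 20818 probes, against 39 in the fit of ratios. Over all alternatives the adjusted p of Foxa3 ran from 0.0114 to 0.434. Without replicate 1 the estimate was -0.61 (limma adjusted p = 0.179). The genes whose 4 ratios lay nearest to those of Foxa3 among all tested genes were Gbp6, at a root mean square distance of 0.078, Apol9b at 0.16 and Apol9a at 0.18. Gbp6, a guanylate-binding protein gene, had ratios of 0.29, -0.10, -0.95 and -1.29.

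The promoter windows of the factors were searched for the letters that these factors are known to bind, on both strands, in 12 windows of 250 bases before an annotated start. The windows are those of RefSeq on GRCm38.p6 and covered 8 of the 9 genes. The forkhead heptamer TGTTTAC was searched together with a variant that reads TGTTTGC and a further variant that reads TATTTAC. At least 1 of these was present in 3 of the 12 windows, before a start of Foxa1, Prox1 and Creb3l3. The share over 32851 windows of all genes was 9.73%. The hexamer ATCAAT, which ONECUT proteins bind, or its variant with the letters ATCGAT occurred in 1 of the 12 windows, before Foxa2. Either was found in 7.4% of all windows. The C/EBP pattern TTGCNNAA, with N for any base, occurred in 0 of the 12 windows and in 9.56% of all windows. The HNF1 palindrome occurred in 0 of the 12 and in 0.00913% of all windows. The letters TATAAA on the gene strand were found in 2 of the 12 windows, before Foxa3 and Cebpa, and in 7.59% of all windows. Shown are the window of Foxa2, the factor with an ONECUT match, and that of Foxa3, the factor with the largest mean difference. Both are on the minus strand, printed from 5′ to 3′, with the ONECUT match, which here reads as the reverse complement, and the TATAAA match in capitals. The first match begins 213 bases and the second 36 bases before the start.
Foxa2 promoter, chr2:148046970-148047219: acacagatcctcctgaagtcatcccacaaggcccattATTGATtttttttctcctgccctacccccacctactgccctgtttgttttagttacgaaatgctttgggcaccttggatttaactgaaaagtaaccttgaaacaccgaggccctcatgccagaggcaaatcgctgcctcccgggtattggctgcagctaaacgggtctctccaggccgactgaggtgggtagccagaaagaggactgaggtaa
Foxa3 promoter, chr7:19023540-19023789: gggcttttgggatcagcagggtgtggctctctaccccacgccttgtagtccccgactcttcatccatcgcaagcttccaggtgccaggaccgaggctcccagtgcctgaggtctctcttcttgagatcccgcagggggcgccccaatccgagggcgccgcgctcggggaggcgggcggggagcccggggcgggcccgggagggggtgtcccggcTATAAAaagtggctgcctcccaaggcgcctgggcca

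Cebpa, the factor of the metabolic programme, gave 5709, 5713, 6456 and 7402 in control mice and 8569, 8241, 5845 and 5749 in knockout mice (chr7:35906517-35906576 of mm9, plus strand). The knockout mice of replicates 1 and 2 were the highest of the 8, and those of replicates 3 and 4 lay among the lower controls. The ratios of 0.59, 0.53, -0.14 and -0.36 averaged 0.15 ± 0.48 (SD, n = 4), with a 95% confidence interval from -0.0080 to 0.31 (limma adjusted p = 0.231). Cebpb, the factor of the acute phase and of regeneration, gave 6659, 8148, 20340 and 12380 in control mice and 7744, 11280, 6813 and 8645 in knockout mice (chr2:167515828-167515887 of mm9, plus strand). A single control mouse, that of replicate 3, carried the highest level, and its array had the lowest ratio, -1.58. The other ratios were 0.22, 0.47 and -0.52, and the mean was -0.35 ± 0.92 (SD, n = 4; limma adjusted p = 0.344). Without replicate 3 the limma estimate, which is not the plain mean of the other ratios, was -0.0873 (limma adjusted p = 0.712).

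Onecut1 varied more than any other of the 9, and more than 99.6% of all tested genes. Control mice gave 1437, 3246, 1815 and 8334 on the brighter probe, and knockout mice 3851, 6855, 1918 and 1619 (chr9:74737402-74737461 of mm9, plus strand). The highest mouse was thus 5.80 times the lowest, both of them controls, and the knockout mice lay wholly within the range of the controls. The ratios were 1.42, 1.08, 0.08 and -2.36, which as folds are 2.68, 2.11, 1.06 and 0.194. Their mean was 0.054 ± 1.71 (SD, n = 4), and the 95% confidence interval of the estimate ran from -1.08 to 1.19 (limma adjusted p = 0.953). Another probe of Onecut1 lies 26481 bases upstream on mm9, in a sequence of which 1 of 3 reading frames has no stop codon. It is shown because it gave the same order of arrays from a separate position and, per the array files, another transcript model of the gene, in lower case throughout as no motif is marked.
Onecut1 second probe, chr9:74710921-74710980: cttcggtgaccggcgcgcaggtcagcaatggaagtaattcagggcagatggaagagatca
This dimmer probe gave 104.7, 182.3, 124.8 and 326.5 in control mice and 170.4, 287.6, 131.2 and 122.8 in knockout mice, with the mice of each genotype in the same order as on the brighter probe. Its ratios were 0.70, 0.66, 0.07 and -1.41. In the processed signals of the scanner software, to which no offset was added, the brighter probe gave 1.45, 1.08, 0.08 and -2.40 and the dimmer one 1.61, 1.01, 0.07 and -2.25, so the probes differed by at most 0.16 on an array there and by 0.95 after the offset.

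Onecut2, the close relative of Onecut1, had smaller swings. Control mice gave 6066, 5533, 3346 and 8353, and knockout mice 6160, 6743, 3564 and 6445, so that both mice of replicate 3 were the lowest of their genotype. The ratios of 0.02, 0.29, 0.09 and -0.37 averaged 0.0061 ± 0.28 (SD, n = 4; 95% confidence interval from -0.27 to 0.28; limma adjusted p = 0.979).

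Prox1, the repressor of bile acid synthesis, was lower in the knockout mouse on replicates 1 and 2 and higher on replicates 3 and 4. Control mice gave 369.1, 336.3, 243.6 and 210.1, and knockout mice 304.6, 229, 293.1 and 405.3 (chr1:191945785-191945844 of mm9, minus strand). The lowest mouse was the control of replicate 4 and the highest its knockout partner. The ratios were -0.28, -0.55, 0.27 and 0.95, with a mean of 0.096 ± 0.66 (SD, n = 4; limma adjusted p = 0.704). Of 7 markers on the array listed for lymphatic endothelium, which also expresses Prox1, 5 were above background in all 8 mice and Mmrn1 in none. Whole-liver RNA does not show which cells carried these transcripts. Summed over 6 tested lymphatic markers, the intensity was 2413 to 3674 in control and 2632 to 3137 in knockout mice, and its part in the Prox1 values was not tested. Creb3l3 was the steadiest of the 9. Its intensities lay between 32640 and 38890 in control and between 29980 and 36390 in knockout mice (chr10:80547080-80547139 of mm9, minus strand). The ratios of -0.0064, -0.17, 0.14 and -0.14 averaged -0.043 ± 0.14 (SD, n = 4), with a 95% confidence interval from -0.23 to 0.15 (limma adjusted p = 0.751).

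**Figure D2:**
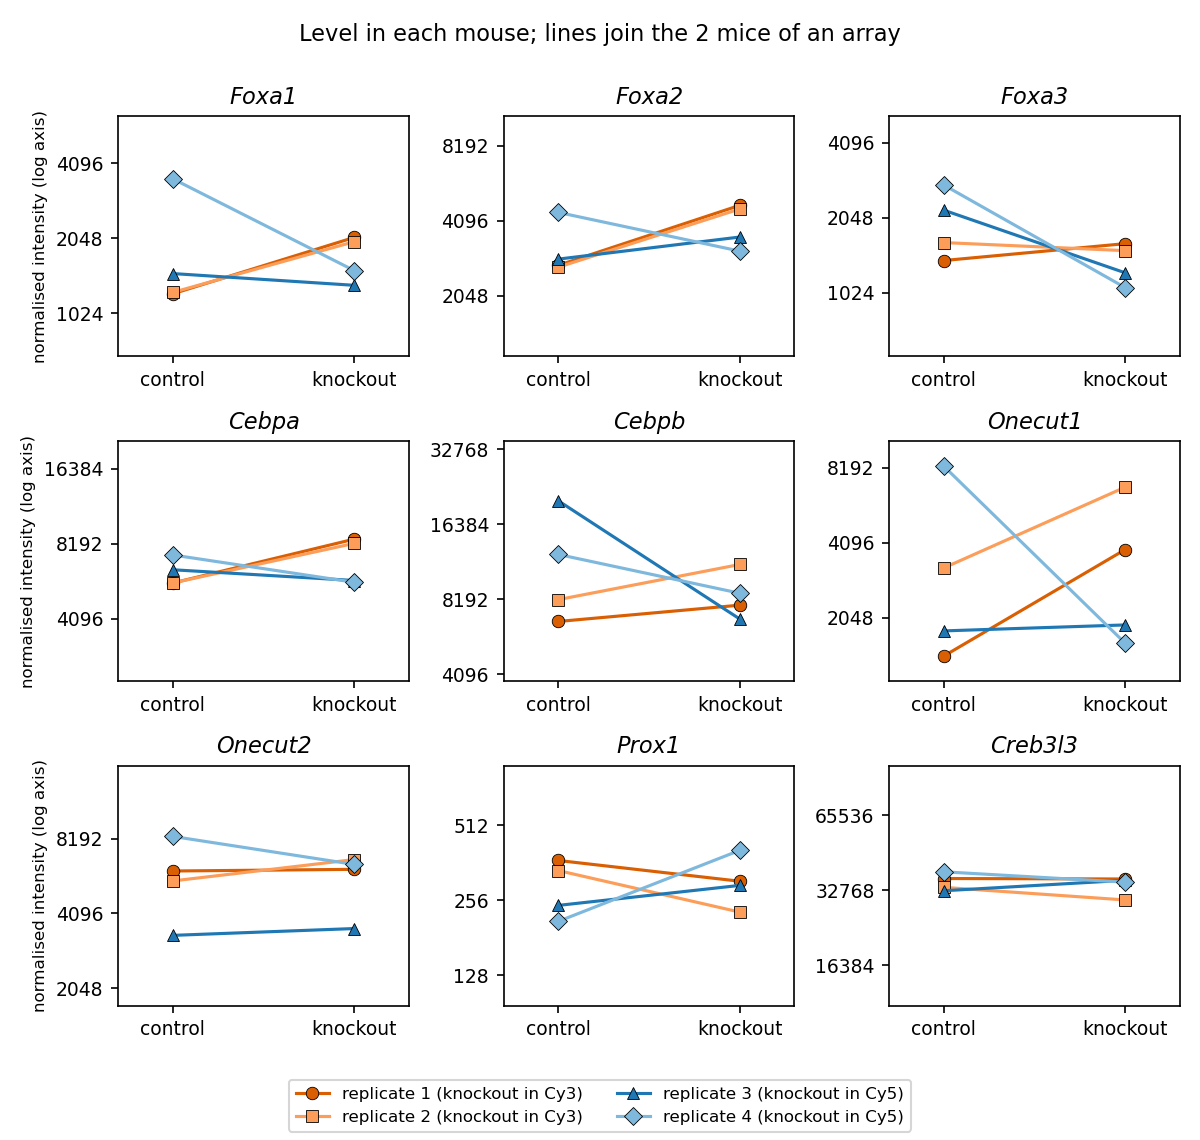
Normalised intensity on a log axis (y axis) of the brightest probe of each factor in control and knockout mice (x axis), with lines joining the 2 mice that shared an array; all panels span the same number of doublings. The control mouse of replicate 4 is the highest control for 7 of the 9 factors, and the lines of replicates 1 and 2 slope against those of replicates 3 and 4 for Foxa1, Cebpa, Cebpb and Prox1.

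The extremes lay in a few mice. The control mouse of replicate 4 had the highest control level of Foxa1, Foxa2, Foxa3, Cebpa, Onecut1, Onecut2 and Creb3l3, which is 7 of 9, and the lowest of Prox1. Over all 16170 tested genes it was the highest control for 27.7%. The control mouse of replicate 1 had the lowest control level of 5 factors, Foxa1, Foxa3, Cebpa, Cebpb and Onecut1, against 25.9% of all genes. Among knockout mice, that of replicate 1 was the highest for 5 factors and that of replicate 4 the lowest for 4, against 24.9% and 23.6% of all genes. Control mice carried Cy5 on replicates 1 and 2 and Cy3 on replicates 3 and 4, so these orders also follow the dye.

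The sign of the difference followed the dye orientation for several factors. Foxa1, Cebpa and Cebpb were higher in the knockout mouse on both arrays with knockout in Cy3 and lower on both with knockout in Cy5, which is 3 of 9 where 9.83% of all genes did so. Prox1 did the opposite, 1 of 9 against 14.5%, so that 4 of 9 turned sign between the orientations against 24.3% of all genes. A dye term in the model had an unadjusted p under 0.05 in limma for 7 of the 9, against 22.7% of all genes, and an adjusted p under 0.05 for 0 of 9 and for 0 of all genes. Since each orientation held different mice, a dye effect and a difference between mice cannot be told apart for a single factor. For Onecut1, Foxa2 and Foxa1 the arrays with knockout in Cy5 lay apart: replicate 3 gave 0.08, 0.29 and -0.16 and replicate 4 gave -2.36, -0.52 and -1.23. The arrays with knockout in Cy3 lay closer together: replicate 1 gave 1.42, 0.80 and 0.75 and replicate 2 gave 1.08, 0.78 and 0.68. Across the 9 factors the ratios of replicates 1 and 2 correlated at 0.91, those of replicates 1 and 4 at -0.81, those of replicates 2 and 4 at -0.71 and those of replicates 3 and 4 at 0.19. Over all tested probes the same pairs gave 0.28, -0.25, 0.17 and 0.53. Replicate 3 against replicates 1 and 2 gave 0.12 and -0.020 over the factors and 0.19 and 0.27 over all tested probes. These are descriptions over 9 genes of arrays that share no mouse.

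**Figure D3:**
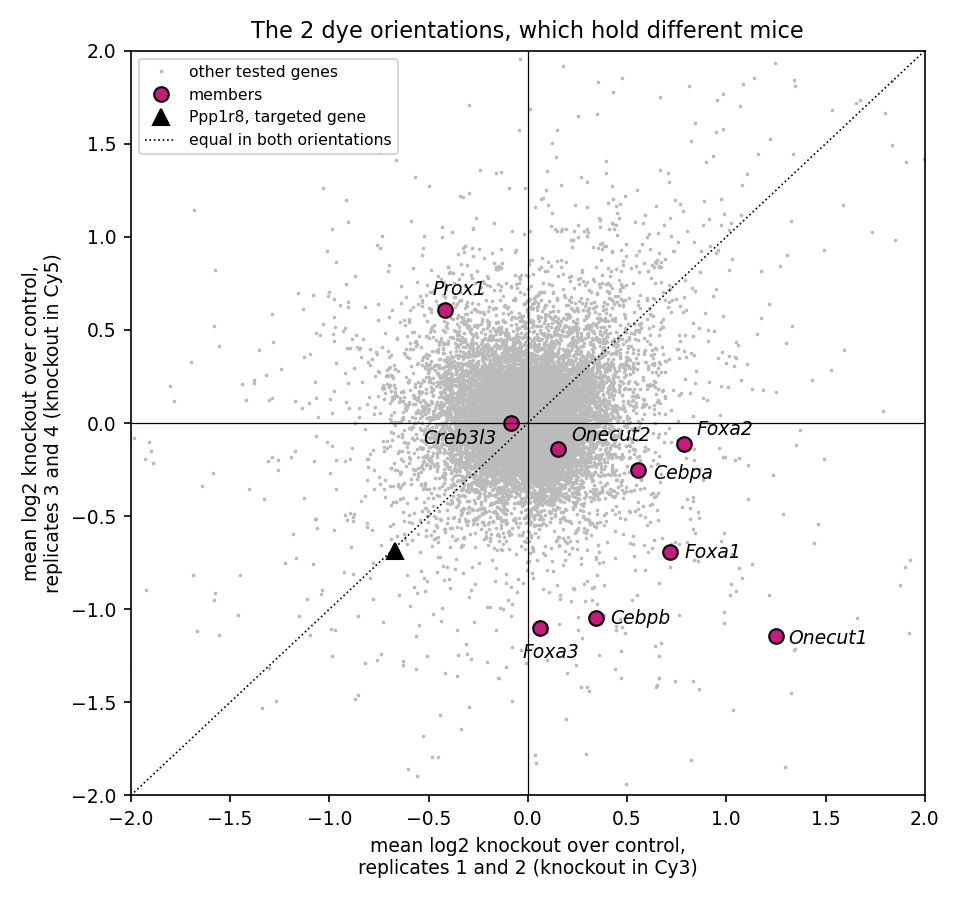
Mean log2 knockout over control on replicates 1 and 2 (x axis, knockout in Cy3) against that on replicates 3 and 4 (y axis, knockout in Cy5), for the 9 factors, Ppp1r8 and all other tested genes (grey); 38 genes lie outside the axes. Ppp1r8 lies on the dotted line of equal values, whereas Onecut1 (1.25 and -1.14), Foxa1 (0.71 and -0.69) and Cebpb (0.34 and -1.05) lie at its lower right.

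Genes known to be bound or driven by these factors were read from lists. Beside these, the 14 fixed lists held other liver-enriched factors, regulators of the factors and cell type markers. Over all 14 lists 183 genes were tested, 1 of them the factor Foxa2, and in limma 0 of the 183 passed an adjusted p of 0.05. An unadjusted p under 0.05 in limma was found for 49, against 23.2% of all genes. At an adjusted p of 0.1, 13 passed higher and 6 lower, where 4.08% of all genes passed higher and 2.6% lower. The counts that follow are at 0.1, and 49.6% of all genes had a mean above 0. Of 18 FOXA-bound liver genes, 9 were above and 9 below 0, with a median of -0.01 (from -0.12 without replicate 4 to 0.050 without replicate 3), and 2 in each direction passed 0.1. Afp, the fetal albumin relative, had ratios of -0.27, -0.37, -0.68 and -0.56 with a mean of -0.47 ± 0.18 (SD, n = 4; limma adjusted p = 0.0556). Alb itself had -0.44, -0.24, 1.20 and 1.24, opposite in sign between the orientations and to Foxa1 on all 4 arrays. Apoa2, the other gene past 0.1 with a mean above 0, had -0.49, -0.37, 0.92 and 1.08 and also turned sign between the orientations. The array medians of the FOXA-bound list were -0.43, -0.26, -0.02 and 0.47, while those of the 9 factors were 0.23, 0.47, 0.08 and -0.52. Hepatocyte markers as a whole had array medians of -0.32, -0.21, 0.09 and 0.34 and a summed intensity of 1094000 to 1564000 in control and 1136000 to 1619000 in knockout mice. These lists are not independent: Alb, Ttr, Apoa1, Apob, Serpina1a, Tat and Cps1 are in both, 7 of 18 and 7 of 15 genes. The part of these genes in the factors' values was not tested.

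**Figure D4:**
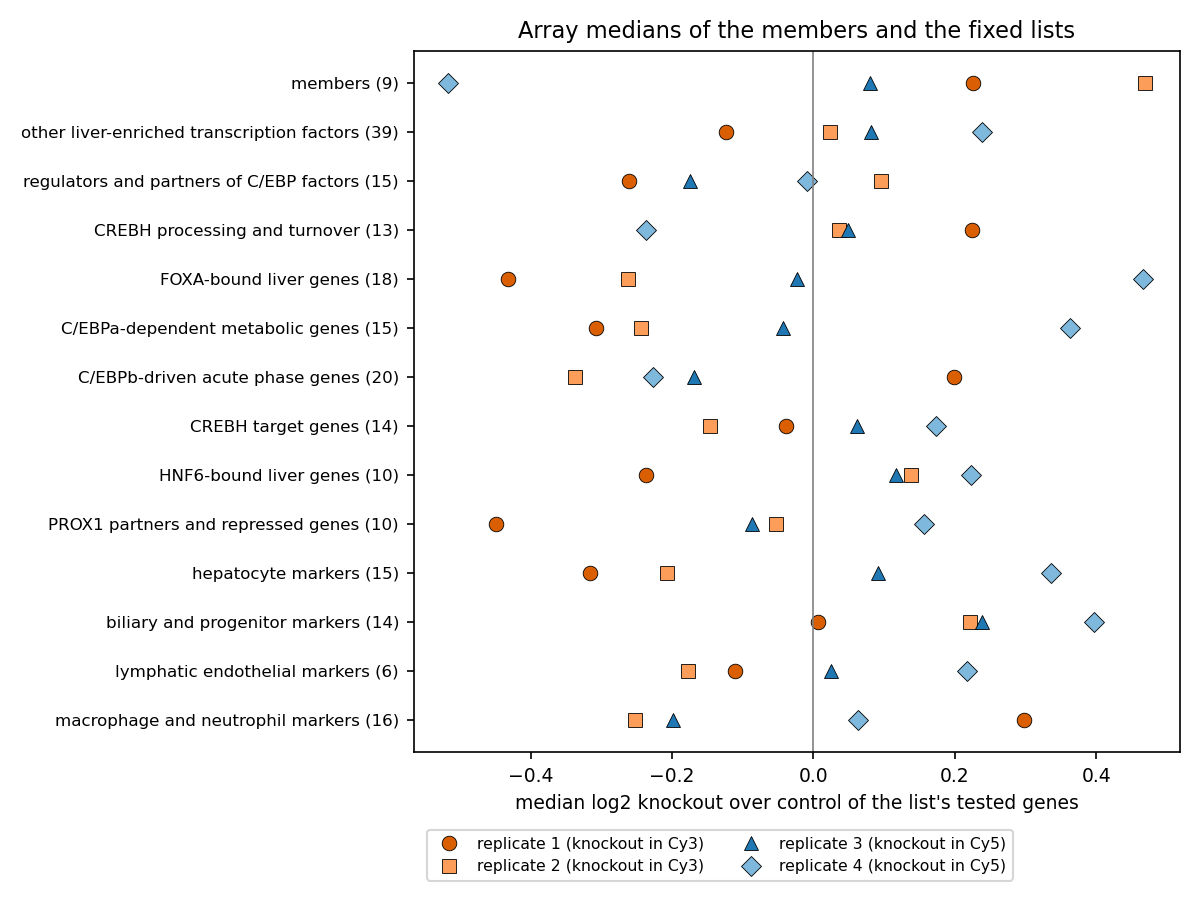
Median log2 knockout over control (x axis) over the tested genes of each list (rows, number of genes in brackets), with 1 symbol per array; the acinar list, whose replicate 1 median of 3.92 lies beyond the axis, is left out. The 9 factors have their lowest median on replicate 4 (-0.52), where the FOXA-bound genes have their highest (0.47).

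Among 15 tested C/EBP-alpha-dependent metabolic genes 7 were above and 8 below 0, with a median of -0.05 (0.0090 without replicate 3 and -0.17 without replicate 4). Of these, 1 passed 0.1, Alb, with a mean above 0 but opposite signs in the 2 dye orientations. Pck1, the rate-limiting enzyme of gluconeogenesis and a gene of 3 of the lists, was lower in the knockout mouse of every array, with ratios of -0.65, -0.49, -1.95 and -0.69 and a mean of -0.94 ± 0.68 (SD, n = 4; limma adjusted p = 0.115). Replicate 3, where Pck1 was lowest, was also the array of the lowest Cebpb ratio. Of 20 acute phase genes driven by C/EBP-beta, 14 were below 0 and the median was -0.21, but 0.025 without replicate 2, and 1 passed 0.1. That was Fga, a chain of fibrinogen, with ratios of -0.16, -0.52, -0.57 and -0.55 on its brighter probe, while its second probe gave a mean of -0.25 (limma adjusted p = 0.595). Saa3, an acute phase amyloid, lay the other way at 0.35, 1.15, 0.39 and 0.40 (limma adjusted p = 0.125). Of 15 regulators and partners of the C/EBP factors, 1 passed 0.1. Stat3, which carries the interleukin signal to acute phase genes, had ratios of -0.43, -0.75, -0.33 and -0.32 with a mean of -0.46 ± 0.20 (SD, n = 4; limma adjusted p = 0.0710). A second, dimmer probe of Stat3 gave -0.19 and did not pass 0.1 (limma adjusted p = 0.277).

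CREBH target genes had 3 of 14 past 0.1, all with a higher mean in knockout livers, beside a mean of -0.043 for Creb3l3 itself. Apoa4, an apolipoprotein of triglyceride-rich particles, had ratios of 1.86, 2.20, 1.34 and 0.46 with a mean of 1.46 ± 0.76 (SD, n = 4; limma adjusted p = 0.0556). Apoc2, the activator of lipoprotein lipase, had 0.50, 0.31, 1.06 and 0.61 with a mean of 0.62 ± 0.32 (SD, n = 4; limma adjusted p = 0.0697). Hamp, the iron hormone hepcidin, averaged 0.52 without the same sign on all 4 arrays. Its ratios were 0.09, -0.08, 1.17 and 0.89, so the difference lay on the arrays with knockout in Cy5. Apoa5, another apolipoprotein gene of the list, lay the other way at -0.21, -0.04, -0.77 and -0.28 (limma adjusted p = 0.165). Pck1, also in this list, was lower on every array as given above. The list as a whole had 6 genes above and 8 below 0 and a median of -0.08, which was 0.014 without replicate 3 and -0.15 without replicate 4. Of 13 genes that process or turn over CREBH, Mbtps1, the Golgi protease that makes the first cut, averaged -0.35 ± 0.13 (SD, n = 4; limma adjusted p = 0.0614) and Nr1h3, the receptor LXR-alpha, 0.26 ± 0.06 (SD, n = 4; limma adjusted p = 0.0881), each with the same sign on all arrays. The dimmer probe of Mbtps1 gave -0.12 and did not pass 0.1 (limma adjusted p = 0.404), while that of Nr1h3 gave 0.28 and did (limma adjusted p = 0.0818).

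Of 10 tested genes bound by HNF6, 6 were above and 4 below 0, with a median of 0.05 (-0.014 without replicate 2 and 0.087 without replicate 1) and none past 0.1. Among 10 tested partners and repressed genes of Prox1, 7 were below 0 and 1 passed 0.1. The median was -0.13, with 0.00062 without replicate 1 and -0.0033 without replicate 3. The gene past 0.1 was Esrra, an orphan receptor that works with Prox1, at 0.24, 0.40, 0.39 and 0.32. Cyp7a1, the rate-limiting enzyme of bile acid synthesis that Prox1 represses, spread over -1.44, 0.04, -0.29 and 0.99.

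The 9 factors were set beside 39 other tested liver-enriched factors, 4 of which (Cebpd, Cebpg, Foxo1 and Foxo3) belong to the C/EBP or forkhead families. Of these, 20 were above and 19 below 0, their median was 0.02 (-0.00029 without replicate 2), and 3 higher and 1 lower passed 0.1. Besides Esrra, those were Atf5 at 0.59 ± 0.53, Mlxipl, the carbohydrate-responsive factor, at 0.32 ± 0.36 and Nfix at -0.25 ± 0.03 (SD, n = 4). The ratios were 0.10, 0.17, 1.12 and 0.96 for Atf5 and 0.0030, 0.023, 0.51 and 0.73 for Mlxipl. Both differences thus lay mainly on the arrays with knockout in Cy5. Second probes of Mlxipl and Nfix gave 0.061 and -0.18 and did not pass 0.1 (limma adjusted p = 0.636 and 0.127). The array medians of these 39 factors were -0.12, 0.02, 0.08 and 0.24, and thus highest on replicate 4, where that of the 9 factors was lowest; the difference was not tested. Bcl6, a repressor, had still wider swings than Onecut1, at -2.11, -3.23, 1.41 and 0.94. Biliary and progenitor cells, which also express Onecut1 and Foxa2, had 12 of 14 tested markers above 0 with array medians of 0.0061, 0.22, 0.24 and 0.40, and 4 passed 0.1. Their summed intensity was 2764 to 3801 in control and 3557 to 5454 in knockout mice, while Cldn4, Muc1 and Ggt1 were among the markers above background in none. Krt19, a keratin of bile ducts, averaged 0.64 ± 0.39, and Tspan8 0.67 ± 0.35 (SD, n = 4). Tspan8 was above background in only 3 of 4 control mice. The 2 markers below 0 were Sox9, at a mean of -0.21, and Pkhd1, at -0.19. Macrophage and neutrophil markers summed to 23480 to 30060 in control and 19400 to 35740 in knockout mice. The part of these cells in the levels of the 9 factors was not tested.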

How the data were processed

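Dyes (Cy3, Cy5) were incorporated into amplified cRNA, per the labels' protocols. Agilent Feature Extraction 10.7.3.1 produced the deposited spot intensities and local backgrounds, per the file headers. The authors' deposited log2 ratios equal knockout over control of the processed signals to within 1e-05. The deposited log10 ratio was not used. Probe positions (mm9) come from the array files, and exon or UTR positions were not determined here.

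Of 44397 spots, 43020 were not controls, and they held 39429 probes. Each array's median signal was 60.6 to 62.4 in Cy3 and 125 to 126 in Cy5, and no spot was saturated. Background was corrected with normexp (offset 50). Its parameters were fitted without 12 to 26 irregular spots per array, since over all spots the fitted background mean of replicate 1 was -273 in Cy3. Loess within arrays followed, 194 to 230 outlier spots were left out and spots of a probe were averaged. Aquantile scaled the single-mouse intensities. A probe was tested if 3 or more mice of 1 genotype had it well above background (20818 probes). The brightest stood for a gene (16170 genes).

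limma 3.58.1 under R 4.3.3 fitted a dye intercept and the knockout effect over 4 arrays. P-values are two-sided, adjusted by Benjamini-Hochberg over all tested probes, with a threshold of 0.05. On simulated ratios of this comparison over the tested probes it found 75% of changes of 0.5 and 97% of changes of 1 (log2). These shares do not carry over to the 9 factors. Their median standard deviation was 0.66, against 0.17 over all tested genes, and a spread of that size was not simulated. A gene with agreeing arrays within each orientation can reach a low p although the orientations differ. Promoters were read from RefSeq (GRCm38.p6). Named list genes were taken from the up to 4 per list with the lowest p and the same sign on all arrays. Not all genes that met this rule are named. Named beside them are the factors, Ppp1r8 and the 3 nearest profiles of the factor with the largest mean. Alb, Apoa2, Hamp, Cyp7a1, Bcl6, Sox9 and Pkhd1 were added after their values were seen, and so were the counts of highest and lowest mice. The factors, lists and tests were chosen with earlier results of these data known. The limma p-values of the main fit rest on the spread between arrays of the same dye orientation and leave out the gap between orientations. Each mouse was measured once.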

Additional observations from a re-analysis of the deposited data

Results flagged for a closer look

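Each group of 4 mice was searched for a mouse far from the other 3, by the gap to its nearest neighbour over the group's range. This found 4 of 53 groups, and chance finds about 1 in 20. The Foxa1 intensity of 3543 in the control mouse of replicate 4 lay far above the other controls (1223 to 1475). In the same mouse the Foxa2 intensity of 4431 on the brighter probe lay far above 2669 to 2876. Creb3l3 was at 29980 in the knockout mouse of replicate 2, below 35340 to 36390 in the others. Ppp1r8 was at 106.8 in the knockout mouse of replicate 3, below 117.7 to 118.5 in the other knockout mice, on its brighter probe.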

How the results depend on the processing

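Over 14 or 15 alternatives a probe, each factor's probe kept its direction and its side of the threshold except as follows. Foxa3 passed 0.05 in the separate-channel fit, the only alternative with 1 of 9 factors past it. Foxa1 turned to -0.00058 in the processed signals and to -0.038 with normexp fitted on all spots, which also turned the second Onecut1 probe to -0.12 and Onecut2 to -0.0066. Median centring turned Creb3l3 to 0.011. Leaving out 1 array at a time gave ranges of -0.26 to 0.28 for Foxa1, -0.56 to 0.67 and -0.37 to 0.38 for the Onecut1 probes, -0.11 to 0.12 for Onecut2, -0.074 to 0.27 for Prox1 and -0.11 to 0.026 for Creb3l3, so their signs rest on single arrays. The larger limma estimates moved from 0.14 to 0.54 for Foxa2, from 0.096 to 0.21 for Cebpa, from -0.62 to -0.087 for Cebpb and from -0.66 to -0.39 for Foxa3.

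Counts over all probes depended on the processing far more. Against 39 probes past 0.05 (27 higher), the processed signals gave 10, normexp on all spots 0, no background correction 141, an offset of 10 gave 62, median centring 356 (282 higher), no dye term 64, the separate-channel fit 3676 (2085 higher), trend and robust 763, no filter on dim probes 503, probes above background in all 8 mice 184, and 1 probe a gene 0. Leaving out an array gave 0 to 0. Of the listed genes 0 passed, against 2 without background correction, 1 with the offset of 10, 5 with median centring, 35 in the separate-channel fit, 11 with trend and robust, 9 without the filter and 1 with all 8 mice. The cause was not tested. The median of the biliary and progenitor markers was 0.11, and 0.41 in the processed signals. Ppp1r8 stayed below 0 throughout, from -1.33 to -0.57 on its brighter probe, and passed 0.05 under 8 alternatives. Each ratio already pairs the 2 mice of an array, so no further block was fitted.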

Other observations

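Among the other liver-enriched factors, Dbp, a clock-controlled factor, had log2 ratios of 0.52, 0.84, 1.25 and 0.15 and did not pass the threshold (limma adjusted p = 0.153). Nr1i3, the receptor CAR, had 0.11, 0.79, 0.24 and 0.59 on its brighter probe (limma adjusted p = 0.172), while its second probe averaged -0.20 (limma adjusted p = 0.4), so its probes differ in direction. Nr1h4, the bile acid receptor, was higher in the knockout mouse of every array, at 0.05, 0.24, 0.29 and 0.71 (limma adjusted p = 0.148). Of the genes bound by FOXA factors, Igfbp1, a secreted binding protein of insulin-like growth factors, had ratios of -3.06, -2.11, -1.53 and 0.13 with a mean of -1.64 ± 1.34 (SD, n = 4; limma adjusted p = 0.0959). These genes were chosen after their values were seen.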
